A study of Mus musculus with 18 samples.

Results

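Airn and Kcnq1ot1 are long noncoding RNAs of imprinted gene clusters, and their levels are described here through 6 stages of germ cell development in the mouse testis. The members were taken by symbol, each symbol standing on 1 row, so that they make 2 of the 13218 loci in the authors' table and 2 of the 4117 loci that reached 1 FPKM (fragments scaled to transcript length and to the mapped fragments of a library) in at least 3 libraries. All animals were male ICR mice with no genetic change or treatment named in the labels, and the 6 groups are the types labelled priSG-A from postnatal day 6, priSG-B from day 9, plpSC from day 14, pacSC from day 21, rST from day 35 and elST from day 56, each with 3 libraries by the labels (the series text speaks of duplicates). In these names, which the labels leave unexplained, SG is the usual short form of spermatogonia, SC of spermatocytes and ST of spermatids. The cells were sorted by STA-PUT, a sedimentation by size that enriches a germ cell type without isolating it, and no label says that replicates are separate animals, so p-values cover the spread between libraries alone, part or all of which may be technical.

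Imprinted genes are transcribed from only 1 of the parental copies, as set by methylation that differs between egg and sperm. Airn and Kcnq1ot1 are the best studied macro RNAs of this kind: in somatic tissues each starts at an imprinting control region that is methylated on the maternal copy, is transcribed from the paternal copy antisense to a coding gene, remains largely unspliced in the nucleus, and silences genes of its cluster in cis. Airn runs antisense to Igf2r, which encodes the receptor for insulin-like growth factor 2 and mannose 6-phosphate, and also silences Slc22a2 and Slc22a3 in the placenta. Kcnq1ot1 runs antisense to Kcnq1, a potassium channel gene, in the cluster that holds the growth-restraining gene Cdkn1c. In male germ cells parental imprints are erased before birth, so both copies of these control regions are unmethylated in the developing germ line. The values below are totals over both copies, since no allele was measured.

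The start regions of the 2 transcripts are shown because each lies in the control region through which its cluster is imprinted. Each sequence runs 5′ to 3′ along the transcript, from 250 bases before the RefSeq start to 50 bases after it (assembly GRCm38.p6), and both members had a RefSeq window. Kcnq1ot1 is at chr7:143296498-143296797 on the minus strand and Airn at chr17:12741061-12741360 on the plus strand. Capitals mark CCAAT in the first and GGGCGG in the second, the letters of a CCAAT box and of a GC box, which do not overlap each other.
Kcnq1ot1: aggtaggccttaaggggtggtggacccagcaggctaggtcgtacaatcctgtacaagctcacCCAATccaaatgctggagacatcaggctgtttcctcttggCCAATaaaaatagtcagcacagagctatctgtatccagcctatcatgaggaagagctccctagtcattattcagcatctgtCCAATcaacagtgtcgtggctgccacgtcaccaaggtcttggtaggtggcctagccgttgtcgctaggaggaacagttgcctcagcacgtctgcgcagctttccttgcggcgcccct
Airn: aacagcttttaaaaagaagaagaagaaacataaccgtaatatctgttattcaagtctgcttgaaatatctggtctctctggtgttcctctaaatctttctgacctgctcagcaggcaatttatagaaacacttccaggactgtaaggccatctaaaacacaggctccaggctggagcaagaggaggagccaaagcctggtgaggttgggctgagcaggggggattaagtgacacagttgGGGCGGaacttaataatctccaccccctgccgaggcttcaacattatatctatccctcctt
Both motifs were searched on both strands. The Kcnq1ot1 window holds CCAAT 3 times on the printed strand, with first bases at -188, -148 and -67 from the start, and no GGGCGG. Of 32851 RefSeq windows of the same length, 37.4% hold at least 1 CCAAT and 3.37% hold 3 or more. The Airn window holds GGGCGG once, with its first base at -11, which 35.7% of windows hold at least once, and no CCAAT. CG dinucleotides number 9 in the Kcnq1ot1 window and 3 in the Airn window, and 54.2% and 23.3% of all windows hold fewer than these. The windows therefore share neither motif, and no binding or methylation was measured at them.

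The 2 loci differ in how the annotation models them, which sets what their FPKM counts. Kcnq1ot1 (ENSMUSG00000101609.2, antisense class, minus strand) lies at chr7:143203458-143296549 as a single exon of 93092 bases, wholly inside Kcnq1, with which it shares 121 exon bases. Another 4 small RNA genes bring the exon sequence shared with other genes to 1.20% of its length. Airn (ENSMUSG00000078247.5, antisense class, plus strand) lies at chr17:12741311-12860136, and its span of 118826 bases overlaps the Igf2r and Mas1 genes on the other strand. In the GENCODE M21 annotation of the same build, Airn has 6 spliced transcripts with 8 exons in all, whose 3597 bases make 3.03% of the span and share none with exons of other genes. M21 holds the preceding version of this identifier (ENSMUSG00000078247.4), so the models behind the deposited Airn value are not known here. If they were those of M21, unspliced Airn RNA would count only where it crosses these exons, whereas all of Kcnq1ot1 counts. The library kit does not mark strand, so intron reads of Kcnq1 and reads of Kcnq1ot1 cannot be told apart. The same holds for Airn and intron reads of Igf2r and Mas1 where these genes overlap it. None of the 20 coding genes of the clusters that were looked up, Igf2r, Kcnq1 and Cdkn1c among them, is in the table, so no silencing target could be read.

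The libraries differed in ways the labels do not explain, and this bears on each result below. Over the tested loci, 11 of 18 pairs of replicates of 1 type had Pearson's r below 0.8 (range 0.0271 to 0.983, across genes, which are not independent replicates), and 13 of 18 libraries were closest to a library of another type. Of 39 names in 7 marker lists for germ and somatic cell types, 1 is in the table: 1700027A15Rik, whose exons share 40 bases with Tnp1, a nuclear protein gene of spermatids. It stood at 4539 and 3175 FPKM in rST replicates 2 and 3 but was listed at 0 in rST replicate 1, at 0.570 FPKM in elST replicate 1 (875 and 73.0 in the others), and at 874 FPKM in plpSC replicate 3 (listed at 0 in the others). Thus the library labelled rST 1 and that labelled elST 1 went against their spermatid labels on this locus, and plpSC 3 went against a label of an earlier stage. The locus was also at 11.8 FPKM in priSG-A 3 (0.139 and 0 in the others), at 75.8, 84.9 and 1195 FPKM in pacSC, and thus about as high in elST 3 as in pacSC 1 and 2. An earlier analysis of these data had set 5 libraries apart from their type by their whole profiles (priSG-A 3, plpSC 3, pacSC 3, rST 1 and elST 1), and results are given with and without them. The ribosomal RNA-derived locus AY036118 divided the libraries into 12 at 1998 to 13911 FPKM and 6 at 7.25 to 36.2 FPKM (the 3 of priSG-B, pacSC 1 and 2 and elST 3); the labels name no batch. Depth inferred from the steps of the FPKM values was 31.7 to 92.4 M (mega) fragments per library.

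Airn, which silences Igf2r in somatic tissues, was highest in the early libraries. Its level was 5.49, 3.06 and 1.03 FPKM in priSG-A replicates 1 to 3 (mean 3.19 ± 2.23, SD, n = 3). The priSG-B libraries held 1.73, 1.58 and 1.79 FPKM (1.70 ± 0.106), and those of plpSC held 4.51, 4.36 and 0.420 FPKM (3.10 ± 2.32). The first 2 replicates of priSG-A and of plpSC were the 4 highest of all 18 libraries, while the replicate 3 of each lay well below them.

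From pacSC on, Airn was low in all but 1 library. The pacSC libraries held 0.598, 0.275 and 0.343 FPKM (0.405 ± 0.171), those of rST 0.677, 0.360 and 0.296 FPKM (0.444 ± 0.204) and those of elST 1.93, 0.560 and 0.449 FPKM (0.978 ± 0.823). The exception was elST replicate 1, which lay just above the priSG-B libraries. Between the highest library, priSG-A 1, and the lowest, pacSC 2, the level differed 20.0-fold, around a median of 0.851 FPKM, and 9 libraries reached 1 FPKM.

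Kcnq1ot1, the macro RNA of the Cdkn1c cluster, varied less and in another order. The priSG-A libraries held 2.84, 1.99 and 1.53 FPKM of it (2.12 ± 0.666, SD, n = 3), those of priSG-B 0.882, 0.974 and 0.770 FPKM (0.875 ± 0.102) and those of plpSC 1.89, 0.887 and 0.747 FPKM (1.17 ± 0.621). All 3 priSG-A libraries lay above all 3 of priSG-B, and plpSC overlapped both.

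In pacSC and elST every Kcnq1ot1 value lay above the pacSC values of Airn. Of the rST libraries, replicate 3 lay among those Airn values and replicate 2 below them. Its level in pacSC was 0.995, 0.878 and 0.962 FPKM (0.945 ± 0.0602). The rST libraries held 2.18, 0.246 and 0.472 FPKM (0.966 ± 1.06), and those of elST 2.005, 1.05 and 0.933 FPKM (1.33 ± 0.588). The widest spread was in rST, whose replicate 1 was the second highest library of all and whose replicate 2 was the lowest. The range over all libraries was 11.5-fold around a median of 0.968 FPKM, and 7 libraries reached 1 FPKM. Because Kcnq1ot1 is 1 long exon, the inferred depth puts between 1118 and 10506 fragments behind each value, a counting error of 2.99% to 0.976% that is smaller than the SD between replicates in every type. No such count was made for Airn. With the 3597 exon bases of M21, far fewer fragments would lie behind an Airn value of like FPKM, so its low values and their ratios are less exact.

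**Figure D1:**
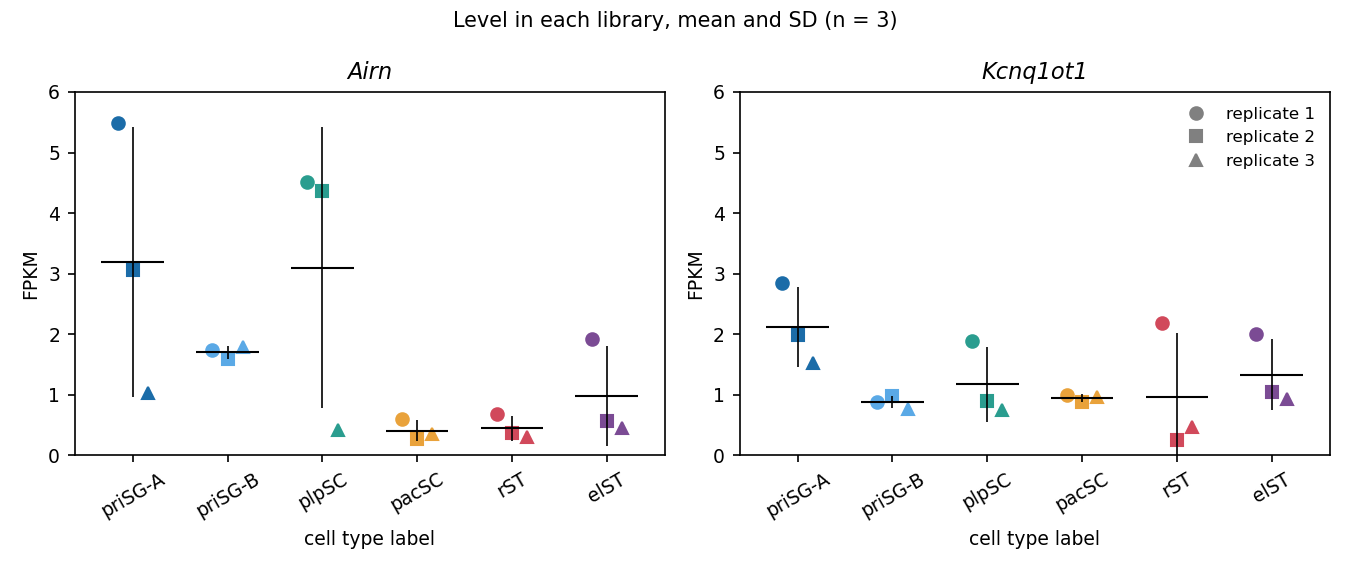
Level of Airn (left) and Kcnq1ot1 (right) in FPKM on the vertical axis, by type label in order of age; symbols are the 3 libraries, bars the mean and vertical lines the SD (cut at 0). Airn stands at 4.36 to 5.49 FPKM in 3 of its 4 highest libraries and below 1 FPKM in all pacSC and rST libraries, while Kcnq1ot1 keeps to 0.878 to 0.995 FPKM in pacSC.

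Ordered by mean, Airn ran priSG-A, plpSC, priSG-B, elST, rST, pacSC, and Kcnq1ot1 ran priSG-A, elST, plpSC, rST, pacSC, priSG-B. No 2 neighbours in either order differed beyond their spread, since the libraries of each neighbouring pair overlapped. Of the 15 pairs of types, 4 did not overlap for Airn: priSG-A and priSG-B each lay above pacSC and above rST in all 3 libraries. For Kcnq1ot1, 2 pairs did not overlap: priSG-A lay above priSG-B and above pacSC. Such separation was common in the table. Of the tested loci, 18.3% lay wholly higher in priSG-A than in pacSC, 18% higher in priSG-A than in priSG-B, 22.2% higher in priSG-B than in pacSC, 16.1% higher in priSG-B than in rST and 4.32% higher in priSG-A than in rST. The position of Airn in priSG-A above rST was thus the least common of these. It rested on 1.03 FPKM in priSG-A 3 against 0.677 FPKM in rST 1, both among the libraries that stood apart. In material that is a mixture of cells, fewer cells of a type and less RNA per cell cannot be told apart.

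Successive types by age were compared on log2(FPKM + 1), a scale that understates changes of low loci, with limma fitted to all libraries. Neither member passed an adjusted p of 0.05 in any of the 5 comparisons. From plpSC to pacSC the estimate for Airn was -1.31 ± 0.52 (SE; 95% interval -2.42 to -0.20), with a limma adjusted p = 0.305 over all loci. In that step 0% of loci were called, although 650 had an unadjusted p under 0.05 by the same limma fit. For Kcnq1ot1 the same step gave -0.12 ± 0.37 (-0.91 to 0.66; limma adjusted p = 0.808).

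The step from priSG-A to priSG-B was the one with the larger estimate for Kcnq1ot1. It was -0.71 ± 0.37 (95% interval -1.50 to 0.07; limma adjusted p = 0.771), where 0.68% of loci were called. Airn gave -0.48 ± 0.52 (-1.59 to 0.63; limma adjusted p = 1). Both intervals include 0 and run past -1, so neither the direction nor the size is settled at this spread.

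From priSG-B to plpSC the estimates were 0.36 ± 0.52 for Airn (limma adjusted p = 0.693) and 0.18 ± 0.37 for Kcnq1ot1 (0.782), where 1.26% of loci were called. From pacSC to rST they were 0.04 ± 0.52 (limma adjusted p = 0.986) and -0.11 ± 0.37 (0.935), and from rST to elST 0.39 ± 0.52 (0.927) and 0.34 ± 0.37 (0.903), with 0% of loci called in each of these steps by limma and 372 and 78 loci at an unadjusted p under 0.05. An F test across the 6 types called 0.68% of loci. It gave F = 2.91 for Airn (limma adjusted p = 0.294) and F = 1.18 for Kcnq1ot1 (limma adjusted p = 0.436).

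The estimates depended on a few libraries. Without plpSC replicate 3 the Airn difference between pacSC and plpSC was -1.96 and passed the test (limma adjusted p = 0.044), in a fit that called 1197 loci where the full one called 0. Without all 5 libraries that stood apart, Airn was lower in priSG-B than in priSG-A (-0.93 ± 0.21, limma adjusted p = 0.0189), higher in plpSC than in priSG-B (1.01 ± 0.21, 0.0119) and lower in pacSC than in plpSC (-1.93 ± 0.23, 3.12e-05). Its means were then 4.27, 1.70, 4.44, 0.436, 0.328 and 0.504 FPKM from priSG-A to elST, so that priSG-A and plpSC were close to each other and priSG-B, between them by age, was lower. Kcnq1ot1 was lower in priSG-B than in priSG-A in that fit (-0.86 ± 0.20, limma adjusted p = 0.0219) and passed in no other step; its estimates were -0.52 ± 0.22 from pacSC to rST (0.0614) and 0.56 ± 0.22 from rST to elST (0.0607). The 5 had been left out for their profiles, a choice that narrows the spread by construction, and the fit called 11.2%, 12.2%, 73.8%, 60.3% and 42.8% of its 3787 loci in the 5 steps. The calls for Airn and Kcnq1ot1 are therefore descriptions of those libraries. Of the libraries kept, all of priSG-A, plpSC and rST had high AY036118 and all of priSG-B and pacSC had low AY036118. The calls for the members and the change of AY036118 set between these types thus cannot be told apart. With only priSG-A and priSG-B in the fit, Kcnq1ot1 also passed (limma adjusted p = 0.0297), where 505 loci did.

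**Figure D2:**
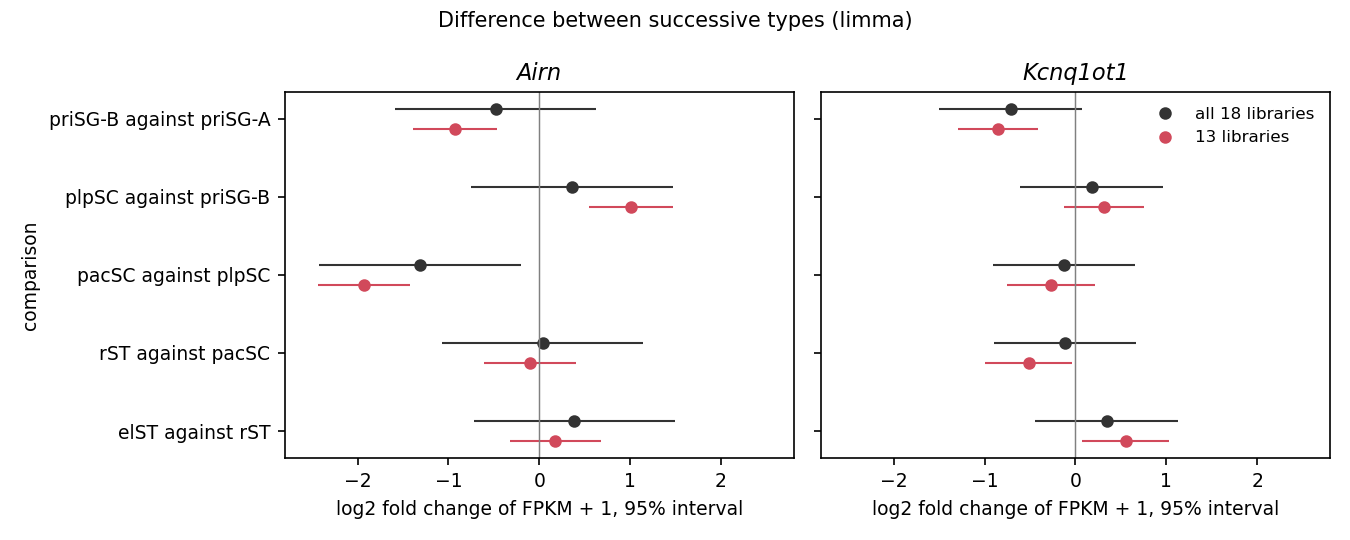
Log2 fold change of FPKM + 1 (horizontal axis) with its 95% interval for Airn (left) and Kcnq1ot1 (right) in each step from a type to the next by age (vertical axis), from limma with all 18 libraries (dark) and with the 13 left after removing those that stood apart (red). With all libraries the interval of Airn from plpSC to pacSC, -2.42 to -0.20, is the only 1 of the 10 that leaves out 0.

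The ratio of the 2 transcripts varied within types as well as between them. The ratio of Kcnq1ot1 to Airn FPKM was 0.518, 0.651 and 1.49 in priSG-A, 0.509, 0.616 and 0.431 in priSG-B and 0.418, 0.204 and 1.78 in plpSC. It was 1.66, 3.20 and 2.81 in pacSC, 3.22, 0.684 and 1.59 in rST and 1.04, 1.88 and 2.08 in elST. All pacSC and elST libraries held more Kcnq1ot1 than Airn per length and all priSG-B libraries held less, with 10 libraries against 8 over the series. A permutation test of the log2 ratio across the 6 types (100000 permutations, on log2(FPKM + 1)) gave F = 2.95 and p = 0.0602, which did not pass. In the 13 libraries left without those that stood apart it was F = 18.5 (permutation p = 0.00031). Single libraries decided it: without plpSC 3 it was F = 7.46 (permutation p = 0.00278), without priSG-A 3 F = 3.67 (0.0359) and without rST 2 F = 3.25 (0.0497). Over all fits that left out 1 library, F went down to 2.25 and the permutation p up to 0.122. The permutations took libraries as independent, which those of 1 type may not be, and the 13 had been kept for their profiles.

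Across the 18 libraries the 2 levels moved together in part. Pearson's r of log2(FPKM + 1) was 0.60 (permutation p = 0.00797) and Spearman's rho 0.60 (permutation p = 0.0101). This is the 1 relation between the members that was tested, with no adjustment. The permutations shuffled the 18 libraries freely, although libraries of 1 type are not fully independent, a dependence that these p-values leave out. The values that follow are the same relation in fewer libraries, and the ranks are a description. Without the 2 libraries farthest from the median of Kcnq1ot1 (priSG-A 1 and rST 1) r was 0.59 (permutation p = 0.0163), and without priSG-A 1 alone it was 0.48 (permutation p = 0.0538). In the 13 libraries left without those that stood apart it was 0.74 (permutation p = 0.00249). Within the 12 libraries with high AY036118 r was 0.64 (permutation p = 0.0273) and rho 0.69. Within the 6 others it was -0.36 (permutation p = 0.501) and rho -0.26, so the relation was not seen there. Kcnq1ot1 spanned only 0.770 to 0.995 FPKM in them, and 6 libraries cannot show that a relation is absent. Such an r was not particular to this pair: ranked by r with Airn, Kcnq1ot1 was number 777 of the tested loci, and Airn was number 641 for Kcnq1ot1.

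**Figure D3:**
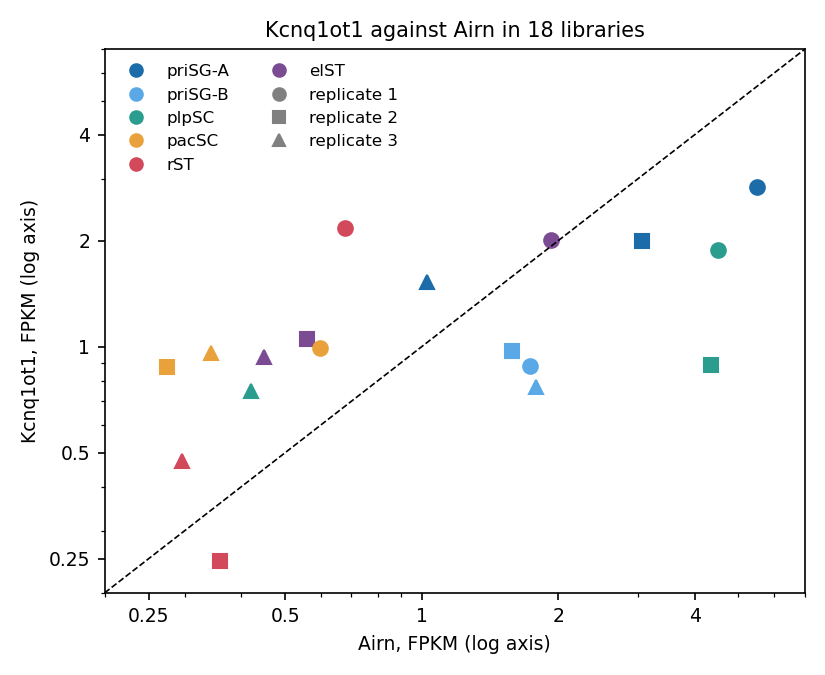
Kcnq1ot1 against Airn, both in FPKM on log axes, in the 18 libraries; colour gives the type label, symbol the replicate, and the dashed line equal levels. The 3 priSG-B libraries lie below the line, the 3 pacSC libraries above it, and rST 1 and plpSC 2 lie farthest from it at ratios of 3.22 and 0.204.

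The loci most like each member over the 18 libraries were different sets, ranked by Pearson's r of log2(FPKM + 1) as a description. For Airn they were Gm42930 (0.96), Gm42989 (0.96), Gm5914 (0.96), Gm44616 (0.95) and Gm47258 (0.95), of which 4 are single-exon loci of the TEC class (models awaiting experimental proof) and Gm5914 is a lincRNA. All 5 lie in or across coding genes, among them Ptpn11, Auts2 and Ctcf. For Kcnq1ot1 they were Gm9968 (0.91), Gm49701 (0.90), Gm47357 (0.90), Gm15713 (0.90) and Gm48273 (0.90), and Gm9968 and Gm15713 both lie antisense inside Zbtb20. The typical tested locus ran the other way, with a median r of -0.60 with Airn and -0.37 with Kcnq1ot1.

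Markers moved in part with the level of Airn and less clearly with that of Kcnq1ot1. The 9 libraries with Airn at 1 FPKM or more held 1700027A15Rik below 1 FPKM in 8 cases (0 to 11.8 FPKM), and the 9 with less Airn held it below 1 FPKM in 1 case, rST replicate 1 (0 to 4539 FPKM). The summed FPKM of H19, Meg3, Rian and Mirg, noncoding loci that are high in somatic or fetal-like cells, was 5.46 to 274 where Airn reached 1 FPKM and 4.63 to 17.0 where it did not. By type this sum was 5.46 to 274 in priSG-A, 50.1 to 51.8 in priSG-B, 5.32 to 49.2 in plpSC, 5.60 to 12.7 in pacSC, 8.91 to 17.0 in rST and 4.63 to 34.0 in elST. H19 made up most of the highest sum (234 of 274 FPKM in priSG-A 1). Meg3 overlapped, at 1.33 to 18.9 FPKM where Airn reached 1 FPKM and 0.389 to 3.25 FPKM where it did not. In priSG-B, Meg3 was at 1.85 to 2.24 FPKM, below its level in pacSC 3 (3.25) and rST 1 (2.99). Mirg did not follow the sum: it was 0.407 to 2.03 FPKM where Airn reached 1 FPKM and 0.209 to 4.36 FPKM where it did not, with its highest values in pacSC 3, rST 2 and rST 3. All 4 of these loci were in the table and none was at 0 throughout, while the coding markers of Sertoli, Leydig, myoid and blood cells are not in it. Since both members are expressed in somatic cells as well, the part of such cells in the levels of Airn and Kcnq1ot1 was not tested. For Kcnq1ot1 the split was less clean: of 7 libraries at 1 FPKM or more, 5 held 1700027A15Rik below 1 FPKM, as did 4 of the 11 below. The sum of the 4 loci was 5.46 to 274 FPKM in those 7 libraries and 4.63 to 51.8 FPKM in the 11, which include all of priSG-B.

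The members overlapped between the sets of high and low AY036118. Airn ranged from 0.296 to 5.49 FPKM (median 0.851) in the 12 libraries with high AY036118 and from 0.275 to 1.79 FPKM (median 1.09) in the other 6. Kcnq1ot1 ranged from 0.246 to 2.84 FPKM (median 1.29) and from 0.770 to 0.995 FPKM (median 0.907). All 3 priSG-B libraries are in the set of 6. The priSG-B levels of Kcnq1ot1 and Airn and the low AY036118 of those libraries therefore cannot be told apart by comparison within a set. With the set as a term in the fit, the difference between priSG-B and priSG-A was -0.52 ± 0.53 for Kcnq1ot1 (limma adjusted p = 0.798) and -0.24 ± 0.77 for Airn (0.962). From priSG-B to plpSC it was -0.012 ± 0.53 for Kcnq1ot1 (limma adjusted p = 0.997) and 0.13 ± 0.77 for Airn (0.991). Within the 12 libraries of high AY036118, where pacSC has 1 library that is assumed to vary like the others, Airn was estimated at -1.37 ± 0.95 from plpSC to pacSC (limma adjusted p = 0.61).

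Other noncoding loci near the members, taken by distance alone, did not share one pattern. Within 1 Mb of Airn the table holds 14 loci, of which 3 were tested, and within 1 Mb of Kcnq1ot1 21 loci, of which 7 were tested; limma called none of the 10 in any step, and the median estimates were -0.43, 0.38, 0.51, 0.26 and -0.30 near Airn and -0.07, -0.14, -0.31, 0.44 and -0.22 near Kcnq1ot1, where all tested loci had -0.21, 0.42, 0.58, -0.35 and 0.17. Gm49959 and Gm49958, which lie inside the Airn span on the other strand, were at 0 in every library and above 0 in 2 libraries, respectively.

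Inside Kcnq1, on the strand of Kcnq1ot1, lie 2 further antisense loci that were low and high in nearly the same libraries as each other. The near end of 4933417O13Rik lies 26.2 kb upstream of the Kcnq1ot1 start, and the locus was below 0.1 FPKM in priSG-A 1 and 2, priSG-B, plpSC 1 and 2, rST 1 and elST 1. It stood at 0.993 FPKM in priSG-A 3 and at 1.98 to 9.85 FPKM in the other 8 libraries. Gm28821, 62.9 kb beyond the other end of Kcnq1ot1, was at 0.622 to 4.93 FPKM in the same 8 libraries and below 0.1 FPKM in the other 10. Kcnq1ot1 itself was measured at 0.246 to 1.05 FPKM in those 8 libraries. Since strand is not marked and Kcnq1 is not in the table, reads of these loci and intron reads of Kcnq1 cannot be told apart.

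The imprinted RNA H19, 625 kb from Kcnq1ot1 and under a control region methylated on the paternal copy, ranged from 0.286 FPKM in rST 2 to 234 FPKM in priSG-A 1, the libraries that were also lowest and highest for Kcnq1ot1. Gm45889, 913 kb away, was at 6.52 to 43.9 FPKM in priSG-A, priSG-B, plpSC 1 and 2, rST 1 and elST 1 and at 0.0559 to 0.255 FPKM in the other 8. Gm36684, 471 kb from Airn, was at 3.68 to 13.5 FPKM in the same 10 libraries and at 0.171 to 0.701 FPKM in the rest.

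**Figure D4:**
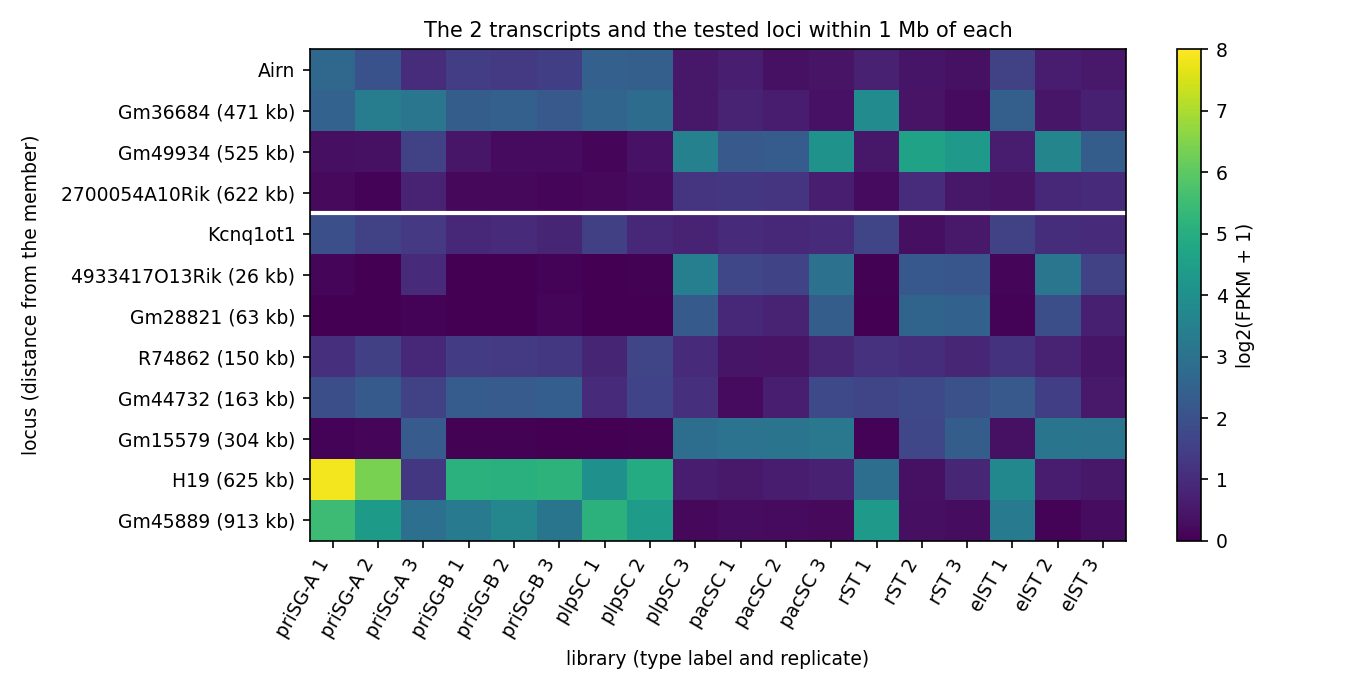
Levels as log2(FPKM + 1), by colour, of Airn and Kcnq1ot1 and of the tested loci within 1 Mb of each (vertical axis, with distance in kb) in the 18 libraries (horizontal axis). The library plpSC 3 looks like the pacSC and later libraries on 4933417O13Rik (9.85 FPKM), Gm28821 and Gm49934, while rST 1 and elST 1 look like the early ones.

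Among known imprinted noncoding RNAs, Airn and Kcnq1ot1 were at the lower end of the tested loci outside Snhg14. Of 11 names on the list, 10 were in the table on 18 rows, since Snhg14 (the long RNA of the Prader-Willi and Angelman region) has several, and 10 rows were tested. None was called in any step, and the medians were -0.32, 0.03, -0.32, -0.02 and 0.30, against -0.21, 0.42, 0.58, -0.35 and 0.17 for all tested loci. Median levels per length over the libraries were 3.95 FPKM for H19, 5.98 for Rian, 2.24 for Meg3, 1.19 for Mirg and 1.12 for Peg13, beside 0.968 for Kcnq1ot1 and 0.851 for Airn. Rian, Meg3 and Mirg come from the Dlk1 cluster and Peg13 from the Trappc9 locus. Igf2os and Nctc1, in the cluster of H19, stayed at or below 0.260 and 0.0673 FPKM and were not tested.

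RNAs that act in the nucleus or on chromatin were compared as loci of like function. All 12 names were in the table and 8 were tested. Ftx, a noncoding activator of Xist, was called higher in priSG-B than in priSG-A and lower in plpSC than in priSG-B by limma (adjusted p = 0.0347 and 0.00799); it stood at 34.0 to 42.7 FPKM in priSG-B and at 0.744 to 5.80 FPKM elsewhere. No other member of that list was called, and its medians were -0.44, 0.27, -0.23, 0.02 and 0.10. Malat1, at 111 to 3183 FPKM, Tug1, at 13.1 to 37.1 FPKM, and Neat1, at 2.28 to 11.3 FPKM, were above both macro RNAs in their medians, while Xist, at 0.00131 to 0.554 FPKM, was below.

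Kcnq1ot1 was also set beside the loci of like structure, those modelled as 1 exon of at least 10 kb. There are 7 in the table and 6 were tested, none of them called in any step by limma, with medians of -0.39, -0.06, 0.10, -0.29 and 0.35. Kcnq1ot1 and AC160336.1, at 0.457 to 1.80 FPKM, were the 2 longest of those tested and similar in level. Another, 9330162G02Rik, ranged from 0.0765 FPKM in rST 3 to 1.83 FPKM in plpSC 1.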

How the data were processed

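Total RNA of 18 libraries was measured by RNA sequencing, with groups taken from the sample titles. The build mm10 and the tools HISAT2 and StringTie are named in the submitters' processing notes. The authors deposited 1 table of FPKM for 13218 loci; its annotation, strand setting and denominator were each not given in the sources used here. Of its rows, 13191 matched GENCODE M21 by identifier and 13098 had the same start and end. Coordinates are 1-based.

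Depth was inferred from the FPKM steps of 3053 single-exon loci, where 95.1 to 97.5% of low values came out whole within 0.02 of a fragment; no counts test was run, because the recovery covers single-exon loci only. Values were tested as log2(FPKM + 1), for loci that reached 1 FPKM in 3 or more libraries, with limma 3.58.1 (trend and robust estimation, R 4.3.3), 1 coefficient per type, two-sided, Benjamini-Hochberg over all 4117 loci, threshold 0.05. The ratio and the relation were tested with 100000 permutations, two-sided for the relation and one-sided by construction for F. Tables were made with pandas 2.3.3 and numpy 2.4.6 in Python 3.11.15, and plots with matplotlib 3.10.9.

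The members, the lists and the 5 libraries left out were chosen with earlier results of these data known. Named besides the members were list members, loci within 1 Mb of either and the 5 loci most like each. Sequences are RefSeq's (GRCm38.p6). The alternatives were another pseudocount, filter, scaling and limma setting, the AY036118 set, fewer types, a replicate block and libraries left out.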

Additional observations from a re-analysis of the deposited data

How the results depend on the processing

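Each member has 70 alternative values over the 5 steps, leaving aside fits without a library of a type not compared, whose estimate cannot move. Airn kept its direction and its side of the threshold in 62 of them and passed in 4; Kcnq1ot1 did so in 60 and passed in 2. Sizes moved more. From plpSC to pacSC, Airn was -2.18 with a pseudocount of 0.1 and -2.14 with quantile normalization, against -1.31. With quantile normalization Kcnq1ot1 was -0.88 in that step, against -0.12. From priSG-A to priSG-B, Kcnq1ot1 was -1.15 with the smaller pseudocount, against -0.71, but Airn was -0.26 with quantile normalization, against -0.48. The smaller fits with only the types compared gave no value for a member that missed the filter there. Without the 5 libraries that stood apart, Airn was estimated at -0.93, 1.01 and -1.93 in the first 3 steps and Kcnq1ot1 at -0.86 in the first, all passing; F over the types also passed, at 34.1 for Airn (limma adjusted p = 1.65e-05) and 8.19 for Kcnq1ot1 (0.00321), where 95.9% of loci did, and the ratio passed with F of 18.5 (permutation p = 0.00031); fewer, more alike libraries narrow the spread there. Airn from pacSC to rST changed sign there (-0.10) and with the AY036118 set as a term (-0.12). In the steps that passed without the 5 libraries, the AY036118 set changed together with the type. With priSG-A and priSG-B alone in the fit Kcnq1ot1 passed at -0.71. Kcnq1ot1 changed sign from priSG-B to plpSC with quantile normalization (-0.17) and with the AY036118 term (-0.012), from plpSC to pacSC with that term (0.0028), and from pacSC to rST with quantile normalization (0.53); none of these passed and the cause was not tested. Quantile normalization moved the median of all loci by 0.17, -0.29, -0.55, 0.45 and -0.14 in the 5 steps. The relation changed sign among the 6 libraries of low AY036118 (-0.36).

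Leaving out 1 library at a time gave Airn -0.93 to -0.09, 0.03 to 1.01, -1.96 to -0.98, -0.075 to 0.13 and 0.07 to 0.57 in the 5 steps, and Kcnq1ot1 -0.86 to -0.55, -0.045 to 0.32, -0.26 to 0.10, -0.52 to 0.15 and 0.08 to 0.75. F was 2.30 to 6.38 for Airn, 0.604 to 2.999 for Kcnq1ot1 and 2.25 to 7.46 for the ratio, and r was 0.48 to 0.71. The counts of called loci were 6 to 36, 9 to 62, 0 to 1197, 0 to 1 and 0 to 1 in the 5 steps and 2 to 78 by F.

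Counts over all loci moved more. A pseudocount of 0.1 called 1 and 2 loci in the first 2 steps and 1 by F. Without a filter 76, 118, 3, 3 and 1 were called, and 90 by F. A filter at 5 FPKM called 10 and 21, and 9 by F, and could not be fitted to Airn or Kcnq1ot1, which do not reach it in 3 libraries. Quantile normalization called 43 by F. In the last 3 steps, where limma called 0, its plain form, with neither trend nor robust estimation, called 0 too. With only the types compared, 505 (273 higher, 232 lower) and 155 (35 higher, 120 lower) were called, with the AY036118 term 140 (14 higher, 126 lower, against 27 and 1) in the first step, 61 (46 higher, 15 lower, against 1 and 51) in the second and 148 by F, and without the 5 libraries 424, 461, 2793, 2282 and 1621, and 3630 by F.

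Replicate numbers are shared across types, but of 45 pairs of same-numbered libraries 25 correlated above 0.1 (range -0.83 to 0.87) and 7 of 18 libraries correlated best with their own number, so the numbers were not taken to pair samples. With the replicate number as a block, Airn from plpSC to pacSC was -1.31 (limma adjusted p = 0.169), Kcnq1ot1 from priSG-A to priSG-B -0.71 (0.488), and 31, 59, 0, 0 and 0 loci were called, and 30 by F; no call of a member changed.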
